A study of Homo sapiens with 3 samples.

Results

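The ZNF genes of chromosome 19 were examined in SH-SY5Y cells. They are the protein-coding genes placed on that chromosome by GENCODE release 29 whose symbol is ZNF followed by a number and, in some, a single letter. This rule found 246 genes among 59152 gene names in the table, and the rule itself reads no measured value. Many of them encode KRAB zinc finger proteins, the largest family of transcriptional repressors in mammals. In these proteins an array of C2H2 zinc fingers reads DNA, often within retrotransposons, and the KRAB box binds TRIM28 (also called KAP1). TRIM28 in turn brings the histone methyltransferase SETDB1, HP1 proteins and the NuRD complex, which place repressive chromatin over the bound element. The genes lie in tandem clusters that grew by duplication, so neighbours often share sequence.

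The study sequenced 3 polyA-selected, strand-preserving RNA libraries of SH-SY5Y, an adherent human neuroblastoma line of noradrenergic type. Each library came from its own untreated flask at about 60% confluency, and the libraries form a single group with replicates 1, 2 and 3. There is no second condition, so the comparison made was of each gene with a fixed level. A p-value sets the distance from that level against the spread between these 3 flasks only. In the test used, each gene's variance is drawn toward that of all genes tested. Levels are FPKM (fragments per kilobase of transcript, for a fixed number of mapped fragments), which are per length, and errors are SDs over the 3 libraries (n = 3). A gene was called above or below 1 FPKM when limma's moderated test of log2(FPKM + 0.1) gave a Benjamini-Hochberg adjusted p under 0.05 over all 31736 genes tested.

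Depth was estimated at 21700000, 28600000 and 43700000 reads in replicates 1, 2 and 3, from the even steps of low values. At those depths 3 reads on 1 kb of transcript are worth 0.139, 0.105 and 0.0686 FPKM. The cell type on the label was checked against marker genes: 7 of 7 noradrenergic neuroblastoma markers were called above 1 FPKM, at 103 to 454 FPKM. None of 4 leukocyte, 3 endothelial, 4 epithelial and 4 Schwann cell markers was called above 1 FPKM, and CD3E and CDH5 were listed at 0 in every library. Of 4 fibroblast markers, 3 were above 1 FPKM, led by DCN at 14.7 ± 2.14 FPKM, and their part in the levels below was not tested. In RNA from a whole culture, fewer cells expressing a gene and less RNA per cell cannot be told apart.

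Nearly the whole family was expressed, and at modest levels. Of the 246 genes, 224 (91.1%) were called above 1 FPKM, 15 below and 7 neither. Over all genes tested 45.5% were above and 43.7% below, and over the protein-coding genes tested 70.6% were above, 24.6% below and 4.83% neither. The median of the 246 was 5.43 FPKM, with library medians of 5.33, 5.35 and 5.53. This is close to the median of all 19680 protein-coding genes, 5.40 FPKM, but the spread around it was much narrower. The middle 50% of the ZNF genes lay between 3.29 and 9.48 FPKM, against 0.0699 to 23.4 FPKM for all protein-coding genes. A level of 2 to 5 FPKM was found for 36.6% of the ZNF genes and 7.52% of protein-coding genes, and one of 5 to 10 FPKM for 32.1% and 9.67%. Both tails were thin: 3 ZNF genes lay under 0.1 FPKM, and 14 (5.69%) exceeded 20 FPKM, where 28.1% of protein-coding genes did. Against a level of 5 FPKM, 107 ZNF genes were above and 86 below, beside 32.9% and 60.1% of all genes tested and 56.6% and 37.4% of the protein-coding genes tested.

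**Figure D1:**
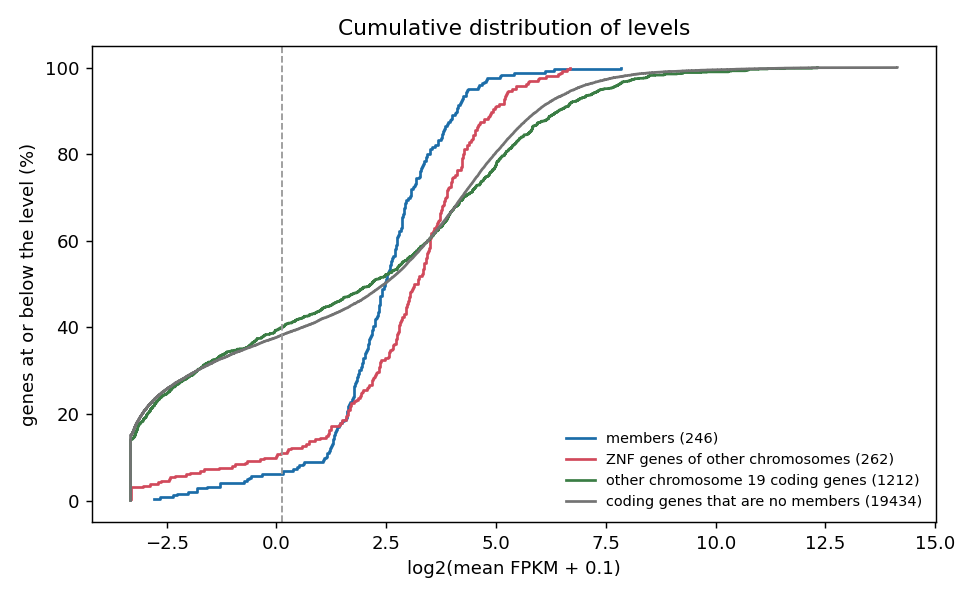
Cumulative share of genes (percent) at or below each level, log2 of mean FPKM plus 0.1, for the 246 chromosome 19 ZNF genes, ZNF genes of other chromosomes, other coding genes of chromosome 19 and all remaining coding genes. The dashed line marks 1 FPKM, and the steep curve of the 246 genes shows their middle 50% within 3.29 to 9.48 FPKM.

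The other coding genes of chromosome 19 did not share this shape. Of 1212 such genes, 693 were called above 1 FPKM and 171 were listed at 0 in all libraries, with a median of 4.37 FPKM and a middle 50% from 0.0822 to 28.1 FPKM. The ZNF genes on other chromosomes, picked by the same symbol rule, stood nearer. Of those 262, 228 were above and 17 below 1 FPKM, with a median of 8.96 FPKM, a middle 50% from 3.80 to 16.5 FPKM, and 49 genes over 20 FPKM. These contrasts are between sets of genes within the same 3 libraries, and no test was made of them.

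The family name was checked against the proteins. Translated GENCODE coding transcripts were searched for a 19-position pattern of the KRAB box, with at least 11 positions required. A match was found in 211 of the 246 genes, and 208 of these held 16 or more positions. The 35 genes without a match reached at most 9 positions, so for them the KRAB name is not borne out by this search. The matching genes had a median of 5.20 FPKM, with 195 (92.4%) above and 11 below 1 FPKM. Of the protein-coding genes tested, 70.6% were above and 24.6% below. Genes without the match had a median of 6.63 FPKM, with 29 (82.9%) above and 4 below, and they were more spread out. They supplied 7 of the 14 genes over 20 FPKM, and also ZNF541 and ZNF296 at the low end. On the other chromosomes the ZNF genes with and without the match had medians of 7.69 (128 genes) and 10.7 FPKM (134 genes). The finger arrays were long, with a median of 13 C2H2 fingers and a range from 0 in ZNF738 to 39. Level varied little with array size: the medians were 5.54 FPKM for fewer than 10 fingers, 5.52 FPKM for 10 to 14 and 5.15 FPKM for 15 or more. Across the 246 genes, which share the libraries and in many cases sequence, Pearson's r of log2 level was -0.09 with finger number and 0.29 with exonic length.

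The highest member by a wide margin was ZNF525, a KRAB match with 8 fingers at chr19:53365693-53392217 on the plus strand (GRCh38). It measured 230.3, 231.8 and 228.9 FPKM in replicates 1, 2 and 3 (230.3 ± 1.45), 7.71 log2 over the level of 1 FPKM (limma, Benjamini-Hochberg adjusted p = 2.99e-05). The 3 libraries were almost the same and far above any other member. An exon of this gene holds AC125388.1, a processed pseudogene of 156 bases. Over 153 aligned bases it is 94.1% identical to RPL39, a ribosomal protein gene at 2735 ± 228 FPKM, and the pseudogene itself was listed at 0 in all libraries. How far RPL39 reads enter the value of ZNF525 was not tested.

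Next in the order was ZNF146, also known as OZF, which encodes a protein made almost wholly of zinc fingers and has no KRAB match. It measured 76.6, 79.6 and 81.7 FPKM (79.3 ± 2.55). ZNF358, with 9 fingers and no KRAB match, measured 72.3, 69.6 and 65.7 FPKM (69.2 ± 3.33). The ranges of these genes over the libraries do not overlap, and both lie clear of the next gene. ZNF428 followed at 38.5, 41.6 and 46.2 FPKM (42.1 ± 3.90). Below it came ZNF580 at 34.4 ± 1.98 and ZNF414 at 33.9 ± 2.65 FPKM, whose ranges overlap. None of these 5 genes had a KRAB match. ZNF91, a KRAB repressor of SVA and LINE-1 elements, came next at 28.2, 29.7 and 24.4 FPKM (27.5 ± 2.73). ZNF235 (27.2 ± 1.1 FPKM), ZNF581 (26.5 ± 4.56), ZNF561 (25.5 ± 1.99), ZNF226 (24.2 ± 1.17) and ZNF536 (23.9 ± 0.485) completed the highest 12. From ZNF91 to ZNF536 each gene overlapped the next in the order, though genes further apart could be distinct: every library of ZNF235 lay above every library of ZNF226 and ZNF536. Several of these genes overlap another gene's exon: ZNF358 an antisense gene, AC008878.4, at 44.4 ± 9.56 FPKM, ZNF146 the opposite-strand ZNF565, and ZNF580 and ZNF581 each other. ZNF235 shares 16.2% of its exonic bases with the opposite-strand ZNF227, at 17.4 ± 0.878 FPKM. For ZNF428 the share is 27.6%, with the opposite-strand SRRM5 at 0.121 ± 0.0146 FPKM. The libraries keep strand, but no source used here says whether the counting used it, so reads of such pairs may not have been told apart.

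**Figure D2:**
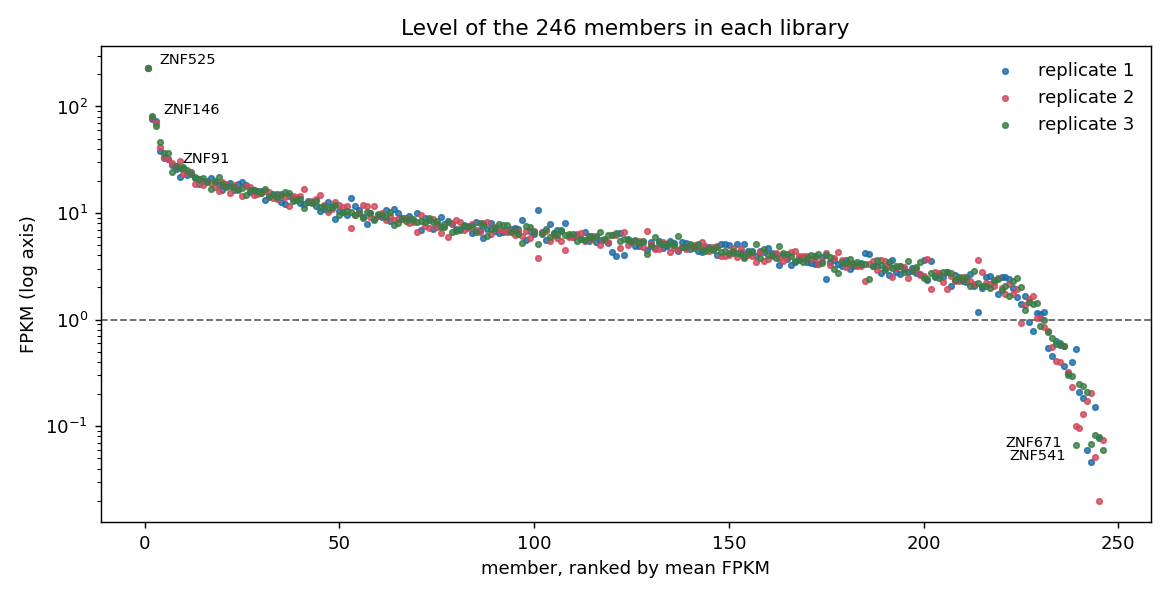
FPKM (log axis) of each of the 246 genes in replicates 1, 2 and 3, ranked by mean, with the dashed line at 1 FPKM. ZNF525 stands alone at 230.3 FPKM, most genes form a shallow slope, and the lowest 15 drop steeply; the value of 0 for ZNF541 in replicate 1 cannot be drawn on a log axis.

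The 15 genes called below 1 FPKM were ZNF541, ZNF671, ZNF154, ZNF418, ZNF296, ZNF534, ZNF723, ZNF676, ZNF728, ZNF878, ZNF729, ZNF837, ZNF575, ZNF99 and ZNF888. ZNF541, a chromatin factor of meiotic germ cells, was lowest, at 0, 0.074 and 0.060 FPKM. ZNF671 measured 0.077, 0.020 and 0.079 FPKM (0.0587 ± 0.0335), a log2 value of -2.82 relative to 1 FPKM (limma, Benjamini-Hochberg adjusted p = 0.000474). Its genomic neighbour ZNF154 measured 0.151, 0.051 and 0.083 FPKM (0.0950 ± 0.0511). These values are of the order of a few reads per kilobase, so the order among the lowest genes is not resolved at this depth. No member was listed at 0 in all 3 libraries, whereas 8 of the 262 ZNF genes of other chromosomes were. The 7 genes called neither were ZNF563, ZNF628, ZNF208, ZNF547, ZNF460, ZNF442 and ZNF492. ZNF442 (1.13, 1.04 and 0.862 FPKM) and ZNF492 (1.19, 0.845 and 0.996 FPKM) straddled the level itself.

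The members known to bind retroelements were a list of 6 genes, and their median was 7.20 FPKM beside 5.43 FPKM for the whole family. All 6 were called above 1 FPKM, which is near the family's share of 91.1%, beside 70.6% of the protein-coding genes tested and 45.5% of all genes tested. ZNF91 led it at 27.5 FPKM. ZNF587, which with its close relative ZNF417 binds HERV-K elements, measured 10.8, 8.55 and 7.68 FPKM (9.01 ± 1.61). ZNF93, a repressor of LINE-1 elements, measured 9.92, 6.70 and 8.24 FPKM (8.29 ± 1.61), so ZNF587 and ZNF93 overlap. ZNF649, which also binds LINE-1, followed at 6.10 ± 0.241 FPKM. ZNF611, a binder of SVA elements, was at 5.43 ± 0.327 and ZNF417 at 4.22 ± 0.258 FPKM. Of the exonic bases of ZNF587, 33.3% also lie in ZNF814 on the opposite strand, so its value is less certain than the rest.

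Members with another described role had a median of 10.3 FPKM. Of these, 14 of 14 were above 1 FPKM, again near the family's 91.1% and beside 70.6% of the protein-coding genes tested. ZNF146 and ZNF536 headed this list. ZNF536, which is expressed in the developing nervous system and restrains neuronal differentiation, measured 24.4, 23.8 and 23.5 FPKM, with little spread between the flasks. ZNF558, described as a regulator of mitochondrial clearance in human neural progenitors, measured 18.7, 20.9 and 21.1 FPKM (20.2 ± 1.31). Its level was distinct from that of the next gene, ZNF331, an imprinted gene, at 12.6, 15 and 14.7 FPKM (14.1 ± 1.31). ZNF444 had nearly the same mean, 14.1 ± 1.91 FPKM. ZNF473, a factor of histone pre-mRNA processing, measured 11.2 ± 0.301 FPKM. ZNF175 was at 11.1 ± 2.01 FPKM and overlapped it. ZNF382, a repressor described as a tumour suppressor, and ZNF675, an inhibitor of TRAF signalling, were both at 9.52 FPKM. ZNF224, a repressor of the aldolase A gene, was at 8.28 ± 1.37 FPKM, but 40.5% of its exonic bases lie opposite an antisense gene at 7.22 FPKM. ZNF274, which brings SETDB1 to the 3' ends of zinc finger genes, measured 7.08, 6.82 and 6.29 FPKM (6.73 ± 0.40). ZNF461 (7.68 ± 1.39 FPKM), ZNF808, a gene of pancreas development (4.48 ± 0.607), and ZNF350, a partner of BRCA1 also called ZBRK1 (4.07 ± 0.150), made up the rest. Of the exonic bases of ZNF808, 14.2% also lie in ZNF701 on the same strand. A further 156 bases lie in the pseudogene RPL39P34, listed at 16.7 ± 7.71 FPKM. The effect of these overlaps on the level of ZNF808 was not tested.

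The list of members whose promoters are often methylated in tumours held 10 genes, with a median of 4.75 FPKM. Of these, 8 were called above 1 FPKM and 2, ZNF154 and ZNF671, below. In the whole family 91.1% were above and 15 of 246 below, and of the protein-coding genes tested 70.6% were above and 24.6% below. ZNF677, at 18.8, 16.7 and 16.3 FPKM (17.3 ± 1.33), was the highest. ZNF331, ZNF667 (10.6 ± 1.19 FPKM) and ZNF382 came after it. ZNF471 (5.16 ± 1.40), ZNF132 (4.34 ± 0.216), ZNF582 (2.98 ± 0.150) and ZNF177 (2.82 ± 0.768 FPKM) were lower. Every library of ZNF177 nevertheless lay above every library of ZNF154 and ZNF671, and no gene of the list fell between 0.151 and 2.33 FPKM. Of the 50-base words of ZNF177, 86.8% also occur in another gene. The read-through gene that joins ZNF177 to ZNF559 covers 90.8% of its exonic bases, so the level of ZNF177 itself is uncertain. DNA methylation was not measured in these libraries.

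**Figure D3:**
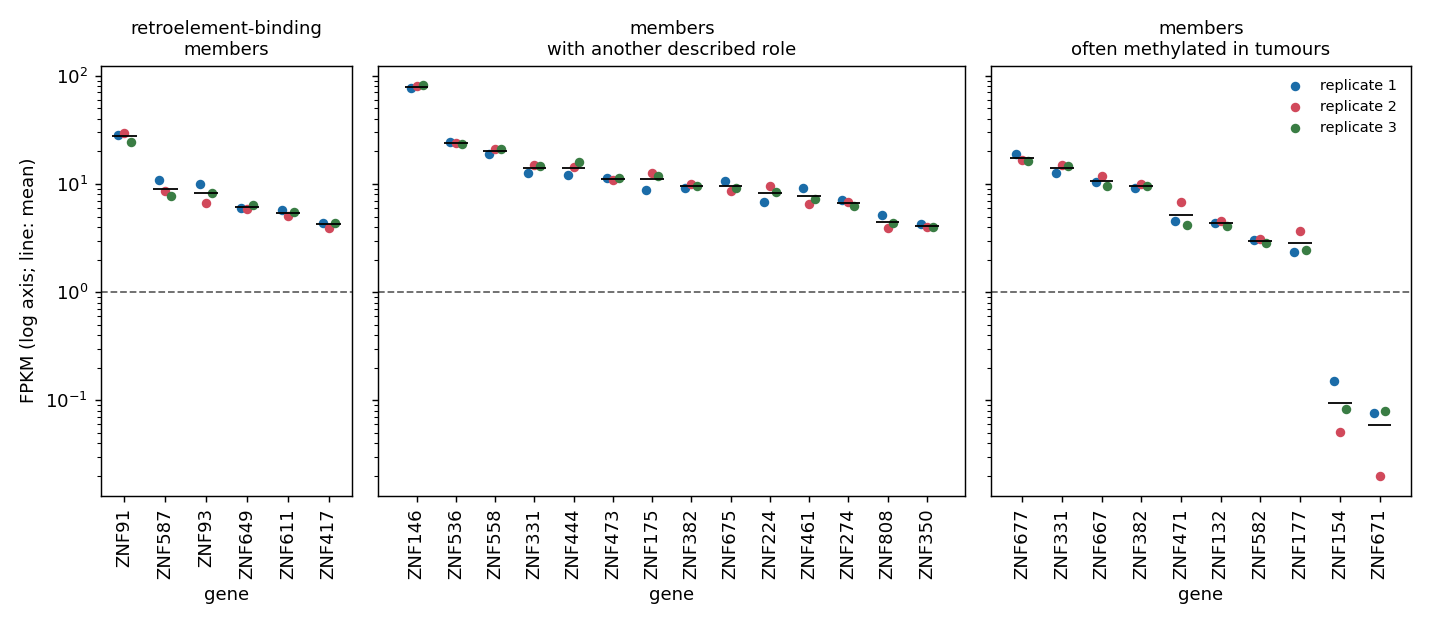
FPKM (log axis) in each of the 3 libraries, with a line at the mean, for 6 retroelement-binding genes, 14 genes with another described role and 10 genes often methylated in tumours; the dashed line marks 1 FPKM. All genes of the first and middle panels lie above it, and in the last panel ZNF154 and ZNF671 lie apart, at or below 0.151 FPKM.

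The genes of the machinery that KRAB proteins act through had a median of 49.6 FPKM, beside 5.43 FPKM for the ZNF genes. All 23 genes of this list were called above 1 FPKM, beside 70.6% of the protein-coding genes tested and 45.5% of all genes tested. TRIM28, the direct partner of the KRAB box, measured 600.6, 570.1 and 612.8 FPKM (594.5 ± 22). CHD4, the NuRD remodeller, was highest at 1198 ± 74.0 FPKM, and HDAC2, a NuRD deacetylase, was at 263 ± 8.94 FPKM. SETDB1, which methylates histone H3 at the bound site, measured 47.9, 48.1 and 52.9 FPKM (49.6 ± 2.78). SUV39H1, a second histone methyltransferase, was the lowest of the list at 6.35 ± 0.921 FPKM. No library of any chromosome 19 ZNF gene reached the lowest library of TRIM28, ZNF525 included.

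Along the chromosome the genes fell into 25 runs in which neighbours lie within 250 kb, of which 12 held 5 or more genes and 230 genes in all. The short arm carried 83 genes with a median of 4.97 FPKM, 73 of them (88.0%) above 1 FPKM. The long arm carried 163 with a median of 5.64 FPKM, 151 of them (92.6%) above. The counts per arm and cluster stand beside 91.1% above in the whole family and 70.6% of the protein-coding genes tested. The medians of these 12 clusters ran from 3.94 to 12.7 FPKM, while the smaller runs reached further, from 0.0447 FPKM for ZNF541 alone to 69.2 FPKM for ZNF358 alone. Among the 12, the highest median was that of the cluster at chr19:9140380-9793180, from ZNF317 to ZNF846, where 11 of 11 genes were above 1 FPKM and ZNF561 led at 25.5 FPKM. The lowest of the 12 was the cluster at chr19:11483427-12640098, from ZNF653 to ZNF791, with 22 of 25 genes above and a range from ZNF878 at 0.546 to ZNF791 at 19.9 FPKM. All 26 genes at chr19:36182060-37817300, from ZNF565 to ZNF573, were above 1 FPKM, with a median of 7.21 FPKM and ZNF146 at the top. The cluster at chr19:51571298-53580269, with 39 genes from ZNF175 to ZNF331, had a median of 6.47 FPKM and held both ZNF525 and ZNF534 (0.184 ± 0.0535 FPKM).

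Genes side by side could differ widely. The cluster at chr19:20535825-24129961 near the centromere held 29 genes, 22 above, 5 below and 2 neither. It contained ZNF91 at 27.5 FPKM as well as ZNF723, whose values were 0.210, 0.095 and 0.250 FPKM (0.185 ± 0.0805). The most distal cluster, chr19:57191500-58481230, held 43 genes with a median of 4.22 FPKM, 37 above and 4 below. ZNF814 was highest there at 14.1 ± 0.764 FPKM, and ZNF671 lowest. In the whole family 91.1% were above 1 FPKM and 15 of 246 below. Of the protein-coding genes tested, 70.6% were above and 24.6% below. Over 221 pairs of neighbours within clusters, Pearson's r between log2 levels was 0.21, and the median absolute difference was 0.89 log2. In 46 pairs it exceeded 2 log2. An exon that overlaps another gene was annotated for 137 of the 246 genes, for 78 of them on the opposite strand, and its part in the likeness of neighbours was not tested.

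**Figure D4:**
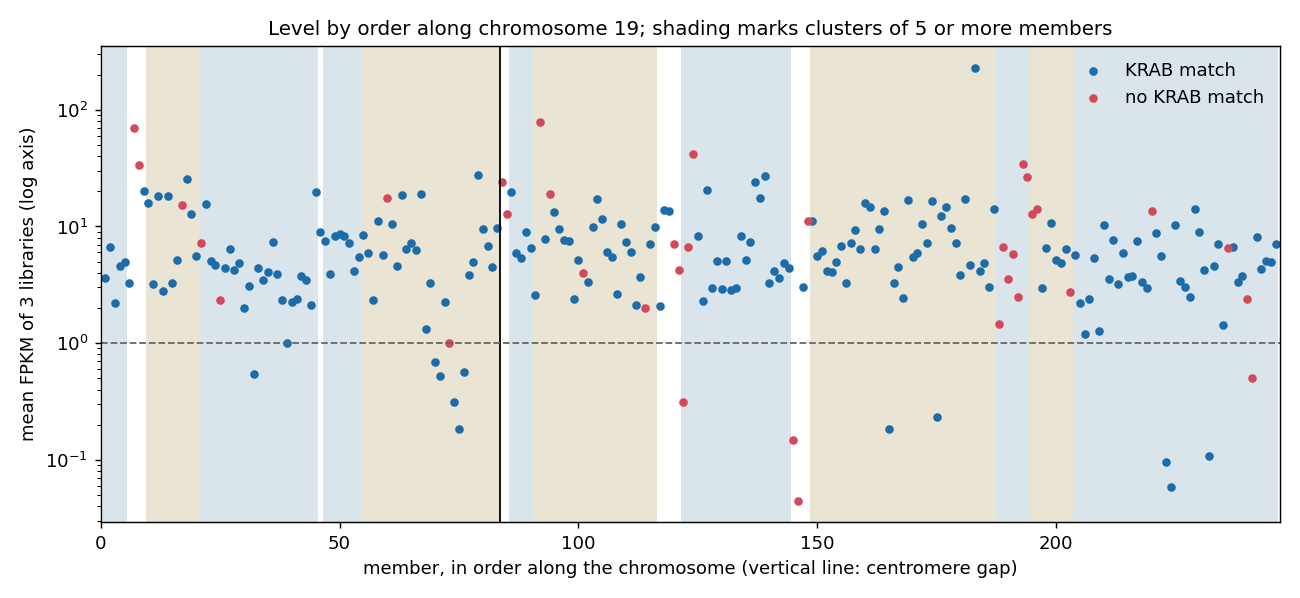
Mean FPKM (log axis) of the 246 genes in their order along chromosome 19, coloured by KRAB match, with shading over the 12 clusters of 5 or more genes and a line at the centromere gap. High and low genes are mixed within clusters, and the group under 1 FPKM just before the centromere lies in the cluster of ZNF91 and ZNF723.

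The promoters differed between the arms. RefSeq windows (GRCh38.p14) from 250 bases before to 50 bases after the annotated start were matched by symbol for 215 of the 246 genes, 73 on the short arm and 142 on the long arm. The 215 genes had 263 windows in all. Only the first listed window of each gene was searched, so other starts of a gene are not covered. The short words below were chosen after scanning these windows, so their counts describe these promoters and test nothing. The box TCCAATCAG, searched on both strands, contains CCAAT, the core that the factor NF-Y binds. It was found in 52 of 73 short-arm windows (71.2%) and in 0 of 142 long-arm windows. It was also in 15 of 210 windows of ZNF genes on other chromosomes (7.14%) and in 83 of 14615 windows of all coding genes outside the family (0.568%). Of 72 boxes, 71 read in the gene's own direction and 65 began between 100 and 20 bases before the start, with a median of 59 bases before it. The box was in all 23 matched windows of the cluster of ZNF91, in 19 of 24 of the ZNF653 to ZNF791 cluster, and in 0 of 10 of the ZNF317 to ZNF846 cluster. A second word, CTGAGTGAC, was in 34 short-arm windows and no long-arm window. It was in 4.76% of windows of ZNF genes on other chromosomes and 0.431% of coding genes outside the family. It shared no base with the box in the 32 windows that hold both.

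The 250 bases before the start are printed for 4 short-arm genes to show the box, in capitals, at both extremes of level and in 1 to 5 copies. They are ZNF91 (chr19:23395472-23395721, minus strand), ZNF43 (chr19:21836183-21836432, minus), ZNF723 (chr19:22832041-22832290, plus) and ZNF77 (chr19:2944972-2945221, minus), each written 5′ to 3′ on the strand of the gene.
ZNF91: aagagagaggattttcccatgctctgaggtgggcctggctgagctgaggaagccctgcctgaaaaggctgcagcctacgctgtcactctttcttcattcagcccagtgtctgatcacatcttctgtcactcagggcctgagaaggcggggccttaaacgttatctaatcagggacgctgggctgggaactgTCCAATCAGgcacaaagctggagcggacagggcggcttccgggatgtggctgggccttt
ZNF43: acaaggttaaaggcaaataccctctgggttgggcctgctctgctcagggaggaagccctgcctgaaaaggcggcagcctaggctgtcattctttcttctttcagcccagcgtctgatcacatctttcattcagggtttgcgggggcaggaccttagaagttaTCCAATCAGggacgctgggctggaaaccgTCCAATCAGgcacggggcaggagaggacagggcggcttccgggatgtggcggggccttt
ZNF723: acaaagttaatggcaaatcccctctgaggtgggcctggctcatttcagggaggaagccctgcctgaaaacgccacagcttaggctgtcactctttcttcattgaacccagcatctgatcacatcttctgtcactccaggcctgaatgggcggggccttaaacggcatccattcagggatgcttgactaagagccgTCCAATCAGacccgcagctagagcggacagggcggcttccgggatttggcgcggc
ZNF77: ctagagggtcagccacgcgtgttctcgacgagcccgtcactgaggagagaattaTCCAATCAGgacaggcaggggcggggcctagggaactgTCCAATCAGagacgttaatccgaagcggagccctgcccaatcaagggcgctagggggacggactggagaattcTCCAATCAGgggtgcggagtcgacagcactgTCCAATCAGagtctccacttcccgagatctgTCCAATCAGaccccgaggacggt

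ZNF91 and ZNF723 carry a box each, 59 and 55 bases before the start, in windows that are 73.6% identical over 300 bases, yet measured 27.5 and 0.185 FPKM. ZNF43, with boxes 88 and 59 bases before the start and 79.0% identity to ZNF91, measured 19.4, 17.5 and 19.8 FPKM (18.9 ± 1.26). The other 22 matched windows of that cluster had a median identity of 79.3% to ZNF91 (55.7% to 86.0%), against 50.6% for the 142 long-arm windows (45.6% to 54.4%). ZNF77, at the far end of the arm, has 5 boxes, is 52.0% identical to ZNF91 and measured 5.18, 4.69 and 5.04 FPKM (4.97 ± 0.253). Among short-arm genes the median level was 4.90 FPKM with the box (52 genes, 0.185 to 27.5) and 5.60 FPKM without it (21 genes). For the 17 genes with 2 or more copies it was 5.88 FPKM (1.33 to 18.9), and the ranges of these sets overlap widely.

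**Figure D5:**
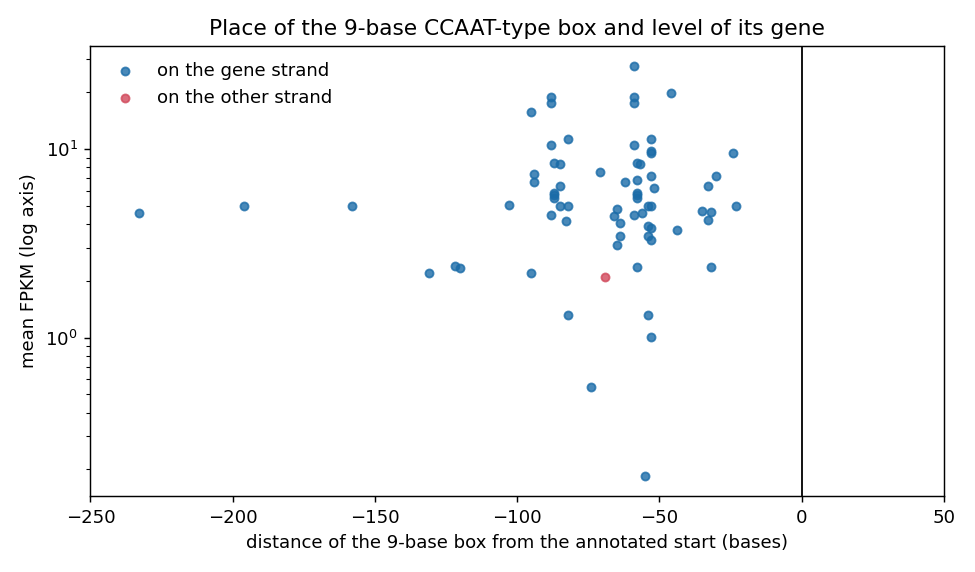
Mean FPKM (log axis) of each gene against the distance in bases of each copy of the 9-base box from the annotated start (vertical line), coloured by strand. Most of the 72 boxes lie between 100 and 20 bases before the start, and boxes at like distances belong to genes of very different level.

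The long arm carried other words. CCGGAAGT, the core bound by ETS factors, was in 44 of 142 long-arm windows (31%) and 1 of 73 short-arm windows. It was also in 14.3% of windows of ZNF genes on other chromosomes and 6.16% of coding genes outside the family. The distal cluster from ZNF264 to ZNF446 held 23 of the long-arm windows with this word. ACTACNNTT, part of the element read by ZNF143, was in 32 long-arm windows (22.5%) and 2 short-arm windows. It was also in 11.4% of windows of ZNF genes on other chromosomes and 2.59% of coding genes outside the family. The cluster from ZNF575 to ZNF180 at chr19:43525497-44500524 held 13 of the long-arm windows with ACTACNNTT and the ZNF565 to ZNF573 cluster 11. Both words were in 7 windows and shared no base in any. Their windows are shown for ZNF226 (chr19:44164850-44165099, plus strand), the highest long-arm gene with CCGGAAGT, and ZNF671 (chr19:57727625-57727874, minus strand), the lowest, with matches of either word on either strand in capitals.
ZNF226: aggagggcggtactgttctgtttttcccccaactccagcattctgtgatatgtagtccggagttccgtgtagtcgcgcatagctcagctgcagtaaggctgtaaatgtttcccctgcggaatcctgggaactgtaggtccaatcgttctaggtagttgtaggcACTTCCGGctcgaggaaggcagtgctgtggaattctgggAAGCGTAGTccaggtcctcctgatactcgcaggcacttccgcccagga
ZNF671: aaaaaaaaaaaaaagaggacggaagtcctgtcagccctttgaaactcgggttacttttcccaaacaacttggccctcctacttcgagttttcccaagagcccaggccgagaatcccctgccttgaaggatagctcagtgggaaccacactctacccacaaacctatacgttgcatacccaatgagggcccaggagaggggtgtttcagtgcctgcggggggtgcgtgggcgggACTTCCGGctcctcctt

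ZNF226 measured 23.0, 24.3 and 25.3 FPKM, and its printed sequence holds both words, each on the opposite strand. ZNF671, with CCGGAAGT also on the opposite strand, did not exceed 0.079 FPKM. Long-arm genes with CCGGAAGT had a median of 5.62 FPKM (44 genes) and those without it 6.40 FPKM (98 genes). Those with ACTACNNTT had a median of 7.98 FPKM (32 genes, from ZNF837 to ZNF146), and those without it 5.62 FPKM (110 genes). The TATA word TATAAA was in 1.86% of the family's windows, 3.81% of ZNF genes on other chromosomes and 9.45% of coding genes outside the family. The ratio of observed to expected CpG had a median of 0.594 on the short arm and 0.822 on the long arm. It was 0.809 in ZNF genes on other chromosomes and 0.769 in coding genes outside the family. Across the 215 genes, r of log2 level with the number of CpG was 0.05.

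Replicates were close for most of the family. The 231 genes averaging 1 FPKM or more had a median SD of log2 values of 0.13. For 115 genes in the middle 50% of levels it was 0.13, and for 2367 other coding genes at the same levels also 0.13. The SD exceeded 0.5 in 4 genes. ZNF563 measured 1.18, 3.61 and 2.19 FPKM and ZNF583 measured 10.8, 3.81 and 5.10 FPKM. ZNF547 (0.778, 1.65 and 1.42 FPKM) and ZNF628 (1.41, 0.938 and 2.00 FPKM) were the others. No library was high throughout, since replicate 1 was highest in 79 genes and replicates 2 and 3 in 76 each. The lowest value was less evenly spread: it fell in replicate 1 for 82 genes, replicate 2 for 90 and replicate 3 for 59. Those shares were 35.5%, 39.0% and 25.5%, beside 33.0%, 41.4% and 25.6% of other coding genes averaging 1 FPKM or more.

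Some of the genes share sequence with other genes, and the effect of this on their values was not tested. Of the 246 genes, 34 had more than 20% of their annotated 50-base words, the length of a read, in another gene. These had a median of 3.92 FPKM, with 33 (97.1%) above 1 FPKM and none below. Among the 123 genes with at most 5% of such words shared, the median was 6.48 FPKM, with 111 (90.2%) above and 9 below. Among the 109 genes with no exon overlap the median was 5.52 FPKM, with 97 (89.0%) above and 10 below. In the whole family 91.1% were above, beside 70.6% of the protein-coding genes tested.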

How the data were processed

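The 3 libraries, replicates 1 to 3 of a single group, were deposited by the authors as 1 table of FPKM for 60660 genes. Per the submitters' processing notes, the build was hg38 and the tools included Cufflinks 2.2.1, TopHat2 2.1.1, FastQC 0.10.1 and bcl2fastq. What each tool did, which annotation was used and whether counting was strand-aware are not stated in any source used here. Identifiers were matched to GENCODE 29 (57046 matched, 3614 did not). Where a name was shared by several identifiers (154 names), the one with the highest mean was kept. FPKM are not counts, so limma 3.58.1 (R 4.3.3) was run on log2(FPKM + 0.1), two-sided and with only an intercept, for every gene not at 0 throughout. The pseudocount makes low genes look nearer to 1 FPKM than they are. Tested on simulated data for 31736 genes, it called 52% of 100 genes lying 0.5 log2 from the level, 78% of 100 lying 1 log2 away and 6% of 200 lying at it.

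Depth came from low values of genes with a single annotated transcript and at least 600 exonic bases, with an assumed fragment length of 200 bases. Depths were scanned for a high share of values that were whole reads to within 0.1. That share reached 96.8%, 96.9% and 96.1%, and as it was the quantity sought it is no separate check. A multiple of the depth also gives whole numbers, so the lowest fitting depth was taken. The resulting floors cover counting error only. Window identities are from global alignments in Biopython 1.88, and the rest used Python 3.11.15, pandas 2.3.3, numpy 2.4.6 and matplotlib 3.10.9. The members and lists were chosen with earlier results of these data known. Genes were named by rule: the 12 highest, the 5 lowest above 0 in every library, the 4 nearest 1 FPKM and the listed members. It also took the highest and lowest member of each cluster of 5 or more, the largest SDs and high genes without a KRAB match. ZNF541, ZNF208, ZNF43, ZNF77, ZNF738 and the full set of genes below 1 FPKM were named after their values were seen. Alternatives were pseudocounts of 1 and 0.01, rescaling to TPM or by median ratio, each library left out, other levels, filters and cluster gaps, and members without exon overlap or with few shared words.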

Additional observations from a re-analysis of the deposited data

How the results depend on the processing

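No paired analysis was possible because the series holds a single group. The number of ZNF genes called above 1 FPKM ranged from 222 to 226 with a library left out, and the number below from 12 to 14. Other levels moved the counts by construction: 107 were above and 86 below 5 FPKM, and 9 were below 0.5 FPKM. Fewer genes entered when only the 109 without exon overlap were counted, with 97 (89.0%) above, beside 91.1% of the whole family. The 123 with at most 5% of 50-base words shared were an alternative chosen after seeing the data. Of these, 111 (90.2%) were above and 9 below, and their median was 6.48 FPKM. Rescaling to TPM divides every gene of a library by the same factor, so by itself it lowers no set of genes more than another. With the pseudocount added, the median shift was 0.43 log2 down over all genes and 0.48 over the family. The medians became 3.86 for the family, 6.37 for ZNF genes of other chromosomes, 3.11 for other coding genes of chromosome 19 and 3.84 for all coding genes, in TPM. Under TPM, ZNF442 turned to a log2 value of -0.43 (limma, Benjamini-Hochberg adjusted p = 0.0192) and ZNF492 to -0.44 (adjusted p = 0.0368), both now below the level. With a library left out the family's median was 5.28 to 5.39 FPKM and that of ZNF genes elsewhere 8.59 to 9.18 FPKM; for all coding genes it was 5.33 to 5.38 FPKM. Without replicate 1, ZNF563 (log2 1.41, adjusted p = 0.0243) and ZNF547 (log2 0.57, adjusted p = 0.0360) were called above 1 FPKM. Under TPM the level stayed at 1 while the values of each library were lowered by a common factor. The cause of the shifts with a library left out was not tested.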

Other observations

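Chromosome 19 also holds C2H2 zinc finger genes with other symbols, of which a list of 15 was examined. Of these, 10 were called above 1 FPKM, 3 below and 2 neither (limma with Benjamini-Hochberg adjustment), and their median was 5.43 FPKM. Over the protein-coding genes tested 70.6% were above and 24.6% below, and the difference from the ZNF genes was not tested. ZSCAN18, a SCAN-domain gene, measured 43.7, 31.5 and 38.4 FPKM (37.9 ± 6.11, SD, n = 3), and its libraries lay above those of all others on the list. ZFP30, a KRAB gene, measured 13.6 ± 0.402 FPKM, and PEG3, an imprinted gene expressed from the paternal allele, 12.1 ± 1.78 FPKM. ZIM3, whose KRAB box is used in engineered repressors, was at 0.038, 0.029 and 0.047 FPKM. ZSCAN4, a gene of the early embryo, was at 0.023, 0 and 0.013 FPKM, and ZSCAN5B was listed at 0 in replicates 1 and 2. ZIM2 and ZSCAN1 were the genes called neither, at 0.629 ± 0.395 and 1.36 ± 0.446 FPKM.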
